A study of Mus musculus with 8 samples.

Results

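Binding sites of the transcription factors NFIA, NFIB and NFIX were described at 10 genes that shape growth cones and neurites: Gap43, the stathmin genes Stmn1, Stmn2, Stmn3 and Stmn4, the srGAP genes Srgap1, Srgap2 and Srgap3, and the exchange factor genes Kalrn and Trio. Chromatin immunoprecipitation followed by sequencing (ChIP-seq) had been performed on granule neuron progenitors dissociated from the cerebellum of mice at postnatal day 7. Each factor had a CD1 library and a second library from a mixed background that the labels liken to the outbred CD1 strain. Libraries are named by factor and background (NfiA CD1, NfiA Mixed and so on), and values given as a pair have the CD1 library first. The labels name no mutant, give papain dissociation as the only treatment and do not say whether animals were pooled or whether libraries came from separate cells. With 1 library per factor and background, differences of background and of library cannot be told apart. The labels name an Abcam antibody for NFIA and a Sigma Aldrich antibody for NFIX, while for NFIB the sample labels name Novus Biologicals and the series text names Sigma. The 2 input samples were not analysed here. Overlapping peaks of the 6 lists (1 bp or more) gave 46070 merged regions on the build mm10. A region was taken as one of a gene when it touched the gene body or when the protein-coding transcription start site (TSS) nearest to its summit, within 100 kb, was that of the gene. By this rule 93 of the 46070 regions belonged to the 10 genes, made of 291 of the 139188 peaks. The regions were chosen by the positions of the called peaks and the genes with results of these data known. Their counts are therefore a description and carry no test.

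Nuclear factor I (NFI) proteins bind DNA as dimers at a palindrome with TTGGC arms, and in the cerebellum they are known to act as granule neuron progenitors leave the cell cycle, extend axons and form dendrites. A growth cone is the motile tip of a growing neurite. Its shape depends on actin at the edge and on microtubules in the core, whose tubulin supply is held by stathmins. The srGAPs bend membranes through their F-BAR domain, and Kalrn and Trio encode exchange factors that act on the actin skeleton of neurites. Nearness of a region to a gene names a neighbour and does not show that the gene is regulated, and peak lists hold no RNA, so cell type markers could not be checked.

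The lists held 7497 peaks (NfiX CD1) to 36431 peaks (NfiB CD1). Read totals were not used here, so the depth of the libraries is unknown. The fold of a peak is the authors' deposited enrichment at its summit over the background their caller estimated, and folds are set side by side only to describe a region. Its percentile is the share of peaks in the same list with an equal or lower fold. A percentile ranks a peak within its own list only, since the lists differ in length. With 2 libraries per factor, an exact permutation test between a pair of factors cannot go below p = 0.333 (two-sided), so none was run.

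One sequence could be read for a region held by all 6 libraries, because the summit lay inside a spliced exon of Srgap2. It is shown because it is the DNA under a shared summit. The exon (chr1:131310474-131310698, minus strand, mm10) is exon 18 of 23 of the longest annotated transcript and is 225 bp long. The median summit fell on base 28 from its 5′ end. The capitals mark a match to the E-box CAGATG, an element of neural bHLH factors, read here on the other strand as CATCTG.

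Srgap2 exon 18: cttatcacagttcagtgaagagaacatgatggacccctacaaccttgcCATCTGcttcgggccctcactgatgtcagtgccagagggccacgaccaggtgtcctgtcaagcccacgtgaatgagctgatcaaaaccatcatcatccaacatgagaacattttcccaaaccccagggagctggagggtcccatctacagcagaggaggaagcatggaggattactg

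The E-box (131310645 to 131310650) lay 21 bp from the median summit. On neither strand did the exon hold the NFI palindrome (TTGGC, 5 free bases, GCCAA), the single element TTGGCA, which the palindrome can contain, or the E-box CAGCTG. A control with 8 free bases between the arms was absent too. Other spellings of the E-box were not searched or marked, so the capitals do not show the only E-box of the exon. Among 15540 coding exons at least as long, the central 225 bp held CAGATG in 20.9% and TTGGCA in 14.7% of cases, CAGCTG in 20.5% and the palindrome in 0.0386%. A match describes letters and is not a bound site. The region is 1028 bp wide, and its DNA outside the exon was not read, including that just beyond the 5′ end of the exon, near the summit. Absence from the exon therefore does not show absence from the region, and 1 exon says nothing of the other regions. Short RefSeq promoter windows around the annotated start were given for 6 of the 10 genes. None of these 6 windows was touched by a peak, and 8.85% of all 32851 windows were. At that share, so few windows say little. They do not show that the starts of the 10 genes are free of peaks. Regions within 1 kb of a TSS are described below, among them a region across the start of Stmn2.

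The 10 genes differed widely in how many regions they held. Kalrn held 29, Srgap2 17, Srgap3 14, Gap43 13, Trio 8, Srgap1 4, Stmn2 4, Stmn1 3, Stmn4 1 and Stmn3 0. Of all 21951 protein-coding genes, 48.5% had at least 1 region by the same rule, against 9 of the 10 here. A region with a peak of all 6 libraries is called common below. The 93 regions included 24 common ones (25.8%, 95% Wilson interval 18.0 to 35.5, counting error only), where 13.2% of all regions were common. The interval takes regions as independent, although 29 of the 93 lie at Kalrn, and it is no test. The common regions lay at 6 genes: Srgap2 (6), Kalrn (6), Gap43 (5), Srgap3 (3), Stmn2 (2) and Srgap1 (2). Common regions occurred at 13.2% of all protein-coding genes. Long genes collect more regions, and 8 of the 10 had a territory (gene body plus the stretch nearest to its TSSs) above the median of 52.1 kb. Per 100 kb of territory, the 10 genes held 3.89 regions and 1.003 common regions, where all protein-coding genes held 1.99 and 0.235. These values describe genes picked for their regions. None of the 93 regions touched another annotated gene of any biotype. Of these regions, 8 counted by the gene body alone, being nearest to the TSS of another gene or over 100 kb from the nearest TSS.

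**Figure D1:**
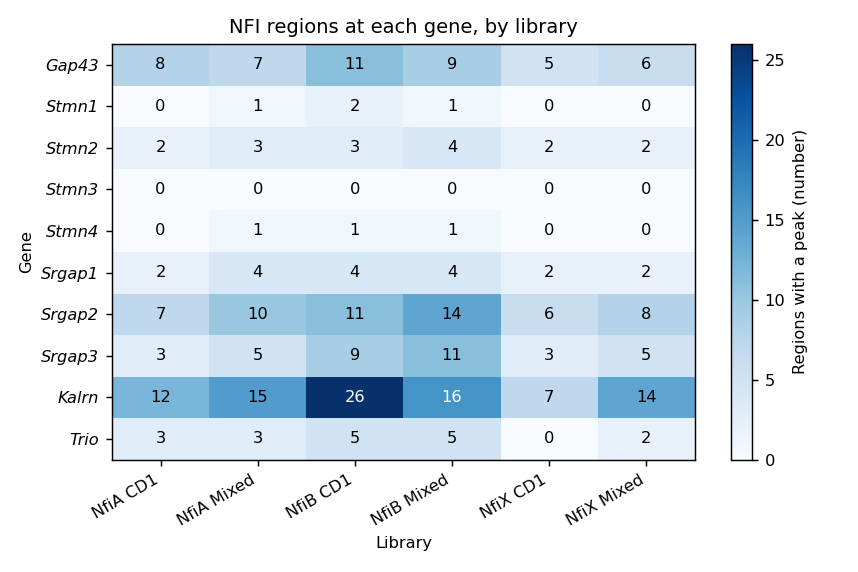
Number of regions with a peak (colour and printed number) at each of the 10 genes (rows) in each of the 6 libraries (columns). Kalrn had the highest count in every library, from 7 in NfiX CD1 to 26 in NfiB CD1, and Stmn3 had 0 throughout.

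The NfiX CD1 library, with the shortest list, set how many regions counted as common. It had a peak in 25 of the 93 regions (26.9%), and 24 of these 25 were common. Over all regions it had a peak in 16.0%, of which 82.4% were common. A further 6 of the 93 regions (6.45%) had peaks of every library but NfiX CD1, against 12.1% of all regions. Without this library, 30 of the 93 regions were common (32.3%), where 25.3% of all regions were. The other libraries had peaks in shares of the 93 regions close to their shares of all regions. These were 39.8% and 36.0% for NfiA CD1, 52.7% and 49.97% for NfiA Mixed, and 77.4% and 78.3% for NfiB CD1. They were 69.9% and 71.3% for NfiB Mixed, and 41.9% and 45.4% for NfiX Mixed.

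**Figure D2:**
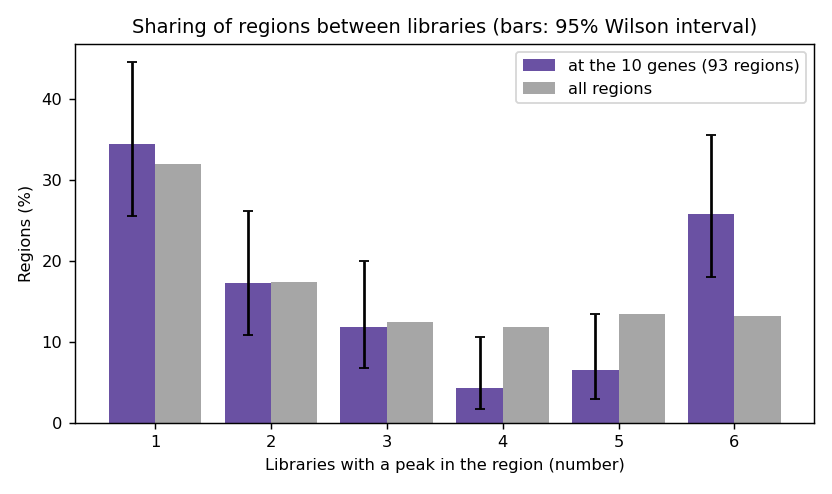
Percent of regions (vertical axis) by the number of libraries with a peak in them (horizontal axis). Purple gives the 93 regions at the 10 genes, with 95% Wilson intervals (counting error only, no test), and grey gives all 46070 regions. Regions of all 6 libraries made up 25.8% at the 10 genes and 13.2% of the whole set, and those of 4 libraries 4.30% and 11.8%.

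Gap43 encodes a phosphoprotein attached to the inner membrane of growth cones. It held 5 common regions in a gene of 92.2 kb, 3 in its first intron, 1 in its second intron and 1 upstream. Only 63 protein-coding genes had more, and 35 genes, Gap43 included, had the same number. The strongest lay in intron 1, 14.3 kb from the TSS (chromosome 16, 42326008 to 42326725). Its folds were 11.2 and 12.6 for NFIA, 17.5 and 15.3 for NFIB, and 6.14 and 11.9 for NFIX. It ranked above the 90th percentile of every list except that of NfiX CD1, where it stood at 53.4. The second, in intron 2 at 84.8 kb (42255603 to 42256256), had folds of 11.2 and 9.63 for NFIA, 13.6 and 10.5 for NFIB, and 5.77 and 10.1 for NFIX (CD1 first). The third, in intron 1 at 20.6 kb (42319808 to 42320258), had folds of 8.26 and 11.3, 21.2 and 15.7, and 5.69 and 8.42 in the same order. Its NfiB CD1 peak stood at the 98.7th percentile and its NfiX CD1 peak at 42.9. The remaining common regions of Gap43 were weakest in NfiX CD1, at percentiles of 2.37 and 0.413. Both were lost when peaks needed a −log10 q of 5 or more, which left 3 common regions at this gene.

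The start of Gap43 itself carried little. A peak of NfiA CD1 alone lay 0.54 kb inside the gene (42340094 to 42340290) with a fold of 3.83, at the 7.71st percentile of its list. A region 9.64 kb upstream was held by every library but NfiX CD1.

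Stathmins bind tubulin and so act on its supply to microtubules. Stmn1 encodes the cytosolic form, and Stmn2, Stmn3 and Stmn4 encode forms anchored to membranes in neurons. The 4 genes together held 8 regions, and both common ones were at Stmn2. The stronger overlapped the 3′ end of the gene, with its median summit just beyond it, 52.6 kb from the TSS (chromosome 3, 8561220 to 8562258). Folds there were 14.0 and 15.0 for NFIA, 19.6 and 20.4 for NFIB, and 6.59 and 17.8 for NFIX. It stood between the 96.8th and 98.8th percentile in every list except NfiX CD1, where it was at 62.2. The other lay in intron 3 (8549604 to 8550291), with folds of 5.47 and 5.31 for NFIA, 9.29 and 5.15 for NFIB, and 5.27 and 5.18 for NFIX. Only NfiB CD1 ranked it above the middle of its list, at percentile 80.4.

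A weak region spanned the start of Stmn2 (8509259 to 8509738). It was held by both NfiB libraries, with folds of 4.45 and 4.41, and by no other. Stmn1 had a region 0.575 kb from a TSS (chromosome 4, 134468801 to 134469142), seen in NfiB CD1 alone with a fold of 2.77. Its region with most libraries, 17.6 kb upstream (134450549 to 134450844), was held by NfiA Mixed (fold 3.37) and NfiB Mixed (3.32). The single Stmn4 region lay 19.1 kb upstream (chromosome 14, 66324866 to 66325414), with folds of 4.58 and 5.15 for NFIB and 5.18 in the NfiA Mixed library. Neither NFIX library had a peak at Stmn1, Stmn3 or Stmn4. The territory of Stmn3 was 15.9 kb and that of Stmn1 47.6 kb, both below the median of all genes. That of Stmn4, 124 kb, was above the median.

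Srgap2, whose product promotes filopodia and limits neuronal migration, held the strongest region of the set. It lay in intron 5 of the longest transcript, 170 kb from the 5′ end of the gene (chromosome 1, 131357088 to 131357502). The nearest annotated start of Srgap2, an internal one, was 6.74 kb away. Folds were 24.7 and 28.8 for NFIA, 27.0 and 25.7 for NFIB, and 22.7 and 29.9 for NFIX. It stood at or above the 99.5th percentile of every list and ranked 15th of the 6062 common regions by mean percentile. The NfiX CD1 peak, at the 99.5th percentile, ranked within its list as the other 5 did within theirs, unlike at Gap43. The next lay in intron 13 (131327013 to 131327675), with folds of 6.57 and 8.49 for NFIA, 11.1 and 13.8 for NFIB, and 6.48 and 11.1 for NFIX. The third was the region over exon 18 printed above (131310137 to 131311164). Its folds were 9.01 and 8.47 for NFIA, 11.7 and 12.5 for NFIB, and 4.96 and 9.83 for NFIX. Among the other common regions of Srgap2, folds ran from 4.56 to 14.8.

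Srgap3 held 14 regions, 3 of them common. The strongest was in its first intron, 82.1 kb into the gene (chromosome 6, 112864884 to 112865284), with folds of 7.12 and 9.93 for NFIA, 7.65 and 5.56 for NFIB, and 7.09 and 9.82 for NFIX. The second lay 35.2 kb upstream (112982234 to 112982603), with folds of 6.35 and 7.65, 5.61 and 5.82, and 7.27 and 13.3. At the second, the NFIX peaks stood at the 71.4th and 93.4th percentile of their lists and the NFIB peaks at 48.2 and 54.7. The third, in intron 1 at 47.4 kb (112899304 to 112900027), was ranked in another order, with NfiB CD1 at the 93.4th percentile and NfiX CD1 at 5.14. Its folds were 5.85 and 6.95, 14.0 and 7.02, and 3.87 and 6.03. Of the 14 regions, 7 were held by 1 library, 4 of them by NfiB Mixed. Of all 46070 regions, 14690 (31.9%) were held by 1 library, 4422 of them by NfiB Mixed.

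Srgap1, long as it is (266 kb), held 4 regions. Both common ones were intronic, with percentiles from 9.55 (NfiX CD1) to 73.8 (NfiA Mixed) at the first and from 26.5 (NfiA CD1) to 68.3 (NfiB CD1) at the second. The first (chromosome 10, 121836835 to 121838040, intron 10) had folds of 5.01 and 7.24 for NFIA, 7.79 and 5.94 for NFIB, and 4.17 and 7.95 for NFIX. It merged 9 peaks, and its strongest summits were spread over 795 bp. With peaks trimmed to 200 bp around their summits, Srgap1 had 1 common region. The second (121946177 to 121946581, intron 1) had folds of 4.78 and 5.43, 7.35 and 6.65, and 5.16 and 5.66. It lay 101 kb from the nearest TSS of the gene and was counted because it lies in the gene body.

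Kalrn and Trio encode related giant proteins, and both act in axons and dendritic spines. They differed in what they held. Kalrn, 604 kb long, held 29 regions, 6 of them common, and only 68 protein-coding genes held more regions. Trio, 295 kb long, held 8 regions and no common one. Per 100 kb of territory the counts were 4.73 for Kalrn and 1.99 for Trio, the latter the same as the 1.99 over all genes. Trio had 0 regions with a NfiX CD1 peak and 2 with a NfiX Mixed peak. Over all regions, 13.2% were common and 16.0% had a NfiX CD1 peak. Beside these shares, counts of 0 among the 8 Trio regions say little. Without NfiX CD1, Kalrn had 10 common regions and Trio 1.

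The strongest common region of Kalrn lay in intron 6 (chromosome 16, 34322569 to 34323202). Its folds were 8.60 and 12.3 for NFIA, 14.9 and 17.4 for NFIB, and 5.79 and 12.5 for NFIX. The second, inside the gene and 37.0 kb from the 5′ end of the gene (34536281 to 34536773), had folds of 10.002 and 10.3 for NFIA, 12.7 and 11.0 for NFIB, and 4.71 and 8.77 for NFIX. The third, in intron 33 (34159505 to 34159946), had folds of 7.26 and 8.22, 6.53 and 5.64, and 11.3 and 7.66. Its order differed from that of the first pair: NfiX CD1 gave it the highest percentile, 92.3, and NfiB Mixed the lowest, 52.1. In the first intron of the longest transcript, a pair of common regions (34440167 to 34440517 and 34441108 to 34441537) lay 590 bp apart. Their folds ran from 4.09 to 7.35 and from 3.87 to 12.9. Of the 9 Kalrn regions held by 1 library, 8 were in NfiB CD1 and 0 in NfiB Mixed, while the libraries had peaks in 26 and 16 Kalrn regions. At the 10 genes together, 32 regions were held by 1 library, 17 of them by NfiB CD1 and 9 by NfiB Mixed. Over all regions, 14690 were held by 1 library, 7552 of them by NfiB CD1 and 4422 by NfiB Mixed. The departure of single genes from these shares rests on few regions and was not tested.

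The Trio region with most libraries was in intron 1 (chromosome 15, 27938679 to 27939507), with folds of 6.11 and 6.22 for NFIA, 8.10 and 8.69 for NFIB, 5.20 in NfiX Mixed and no peak in NfiX CD1. A neighbouring region (27943463 to 27944012) was held by both NFIA and both NFIB libraries and no NFIX library, with folds of 4.12 and 5.21 for NFIA and 8.18 and 7.73 for NFIB. The 3 Trio regions of more than 1 library all lay between 82.2 and 106 kb from the 5′ end of the gene, within intron 1. They were 0.42 to 24.4 kb from an internal start.

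**Figure D3:**
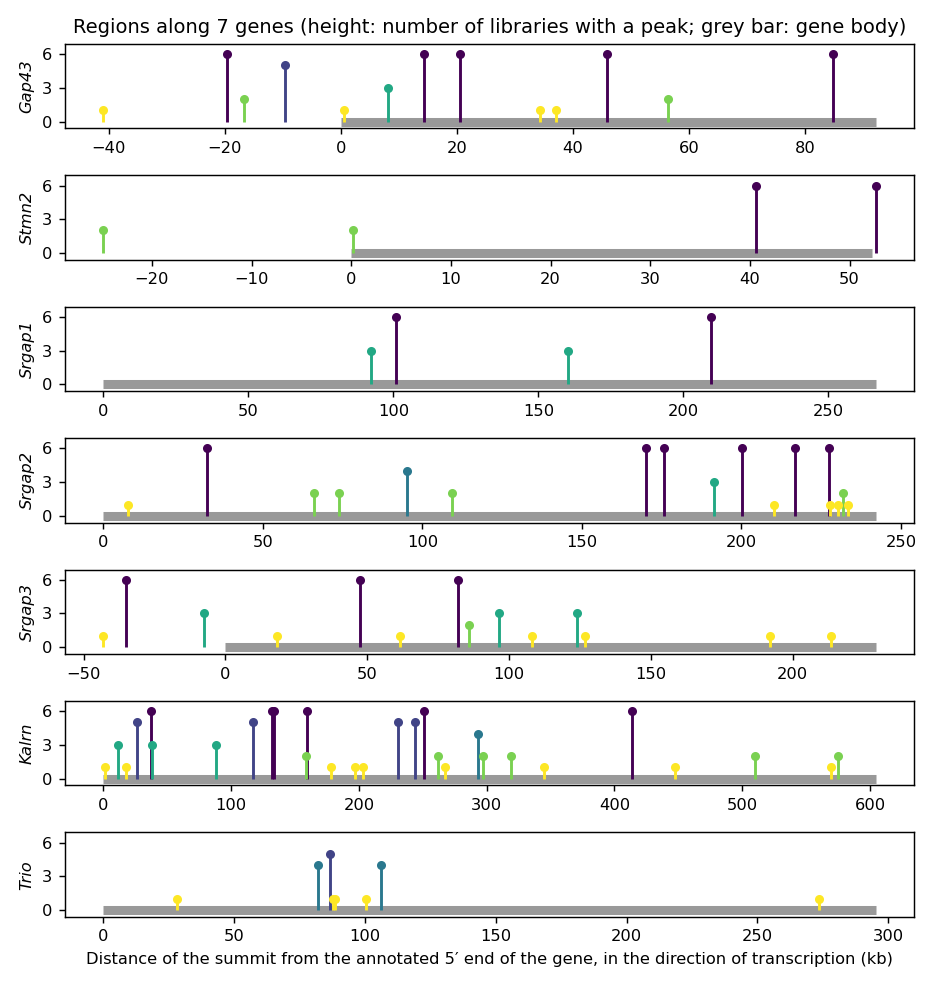
Position of each region along the 7 genes with at least 4 regions, as the distance (kb) of its median summit from the 5′ end of the gene in the direction of transcription, with the grey bar marking the gene body. Heights and colours give the number of libraries with a peak. In Srgap2, 5 of the 6 common regions lie 170 to 227 kb from the 5′ end, and in Trio the regions of several libraries lie between 82.2 and 106 kb. Internal starts are nearer, at 0.468 to 17.2 kb from these Srgap2 regions and 0.42 to 24.4 kb from these Trio regions.

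Introns held 72 of the 93 regions (77.4%) and 19 of the 24 common ones. This follows in part from the rule, which takes in gene bodies. Of all regions, 40.7% were in introns of protein-coding genes. Regions within 1 kb of a protein-coding TSS numbered 6 (6.45%, against 8.45% of all regions), at Gap43, Stmn1, Stmn2, Srgap2, Kalrn and Trio. In the 3 large genes these sat at internal starts. The Srgap2 one was common (131299648 to 131300212). It lay 0.468 kb from an internal start and 227 kb from the 5′ end of the gene, with folds of 7.32 and 7.93 for NFIA, 14.8 and 11.5 for NFIB, and 4.56 and 9.88 for NFIX. At Kalrn the region lay 0.415 kb from an internal start (34456311 to 34456721) and 117 kb from the 5′ end. It had folds of 6.19 and 5.73 for NFIA, 6.06 and 3.46 for NFIB, 3.41 in NfiX Mixed and no peak in NfiX CD1. At Trio it lay 0.42 kb from an internal start (27919518 to 27919857), with folds of 4.82 and 4.55 for NFIB and of 3.34 and 4.78 in the Mixed libraries of NFIA and NFIX. Of the 6, only the Srgap2 region had a peak in all libraries.

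The 11 regions outside gene bodies were 7.53 to 43.0 kb from a start, well inside the limit of 100 kb. The farthest was a Srgap3 region at 43.0 kb with 1 peak, of fold 4.08. The nearest region beyond the limit was 104 kb from the Gap43 start (42444705 to 42444880) and also had 1 peak, of fold 4.12.

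The 24 common regions were set beside all 6062 by strength and summit position. Their mean percentile had a median of 71.9 (43.1 to 99.7), where all common regions had 75.8, and 9 of the 24 were above that value. Within NfiX CD1 the median percentile was 38.7 at the 24 and 52.8 over all common regions. Within the other lists these medians lay nearer to each other, the widest gap being 74.5 and 78.0 in NfiA CD1. The width was 623 bp at the median, against 590 bp. NfiX CD1 gave the lowest fold of the 6 libraries in 17 of the 24, and in 65.0% of all common regions. A NfiB library gave the highest in 17 of the 24, and in 78.7% of all common regions. Summits of the 6 libraries spanned a median of 69 bp (18 to 795), where all common regions had 62 bp. The span was 18 bp at the strongest Srgap2 region and at the first Srgap3 region, and over 100 bp at 6 of the 24 (20.1% of all common regions).

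**Figure D4:**
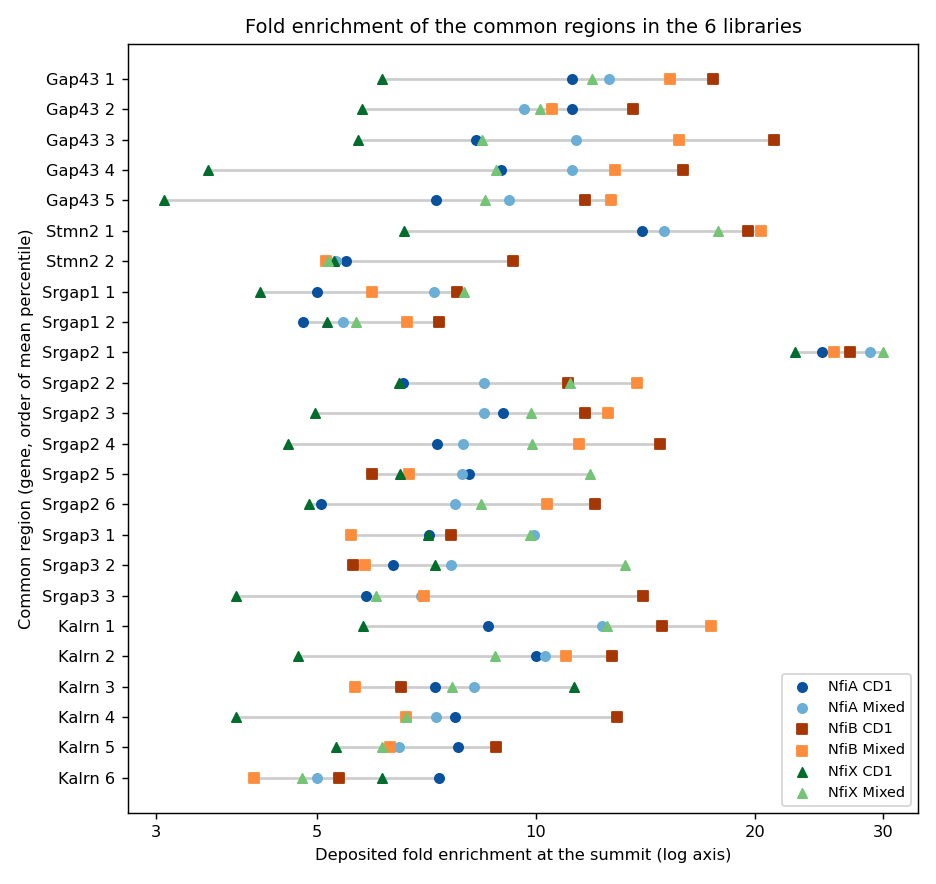
Deposited fold enrichment (horizontal, log axis) of the 24 common regions (rows, by gene and then by mean percentile) in the 6 libraries, with colour and shape giving the library. The strongest Srgap2 region sits at 22.7 to 29.9 in all 6, apart from the rest, and NfiX CD1 is lowest in 17 rows.

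**Figure D5:**
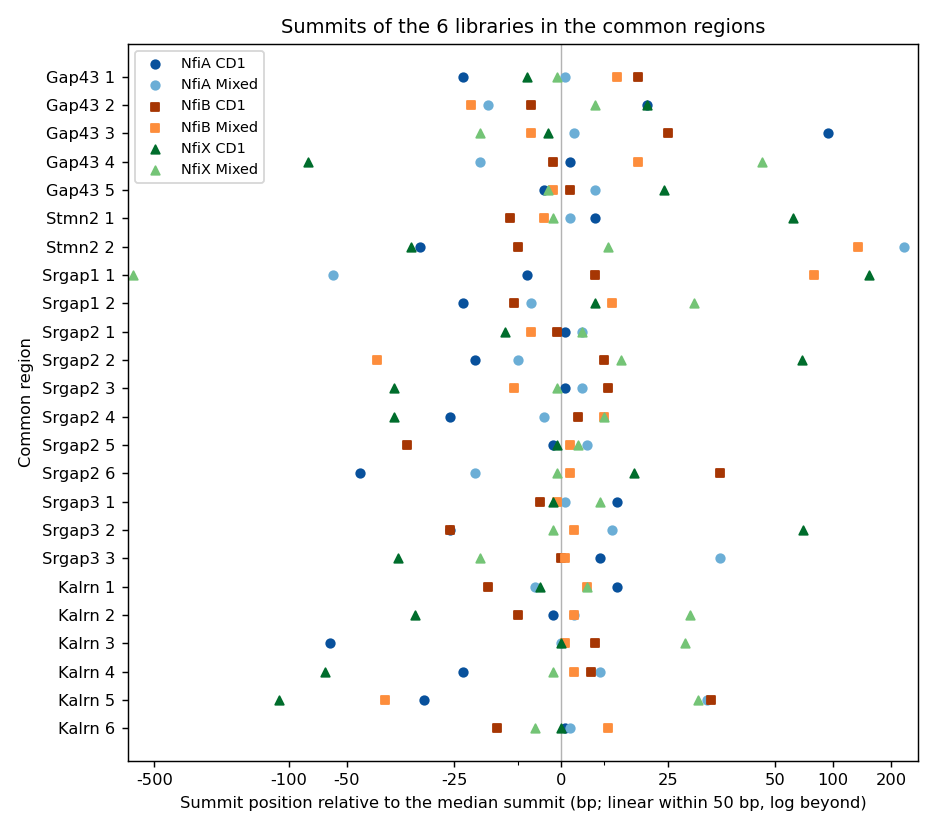
Summit of each library relative to the median summit (bp, linear within 50 bp and log beyond) in the 24 common regions (rows). The 6 summits span 18 bp in the strongest Srgap2 region and 795 bp in the first Srgap1 region, where NfiX Mixed lies at -642 bp.

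By factor, 51 of the 93 regions had peaks of both NfiB libraries, 32 of both NfiA libraries and 24 of both NfiX libraries. The shares were 54.8, 34.4 and 25.8%, and over all regions they were 56.6, 29.8 and 14.9%. The 24 NFIX regions were the same 24 as the common ones. No region at the 10 genes was held by both libraries of NFIA alone or of NFIX alone, and 6 were held by both of NFIB alone (6.45%, against 9.73% of all regions). These 6 were at Srgap2 (2), Gap43, Stmn2, Srgap3 and Kalrn. By background, 24 regions had peaks of all 3 CD1 libraries (25.8%, against 14.1% of all regions) and 32 of all 3 Mixed libraries (34.4%, the same share as of all regions). The 24 CD1 regions were again the common ones, limited by the short NfiX CD1 list. Regions seen in CD1 libraries only numbered 21, of which 9 were at Kalrn, and those in Mixed libraries only numbered 18, of which 6 were at Srgap2. Their shares, 22.6 and 19.4%, were close to the 19.1 and 19.3% of all regions.

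Other genes of growth cone and neurite form were counted by the same rule, where 13.2% of all protein-coding genes had a common region. Growth cone proteins at the membrane had one in 2 of 6 cases, with 3 at the adhesion gene Cntn2. Microtubule-associated proteins of neurites had one in 4 of 11 cases. Among these Dcx, the gene of the migration protein doublecortin, had 3, the strongest in an intron (chromosome X, 143897585 to 143898393, folds 6.79 to 11.0). Actin regulators of growth cones had one in 2 of 12 cases. These shares take no account of territory. Per 100 kb of territory, these lists held 0.425, 0.421 and 0.178 common regions in the order named, where all protein-coding genes held 0.235. The 5 genes of the CRMP family, tubulin-binding proteins of the growth cone, all had regions and none had a common one.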

How the data were processed

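The authors deposited 1 peak list per ChIP-seq library. The submitters' processing notes name Bowtie2 2.2.6, SAMtools 1.4.1 and MACS2 2.1.0, with mm10 as build. Thresholds, read filters and any use of input were not given in the sources at hand. By the format of that caller, the deposited fold is a ratio of summit signal to estimated background. The deposited −log10 p and −log10 q values come from the authors' peak caller, and only q was used, as a filter.

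Peaks were merged at 1 bp of overlap with Python 3.11.15 and NumPy 2.4.6, and assigned with GENCODE M21 genes on the same assembly. The summit of a region is the median of the strongest summits of its libraries. Merging and assignment were tested on simulated peaks. Wilson intervals (95%) came from SciPy 1.17.1. The exon sequence came from GENCODE transcripts, as no genome sequence was used here.

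The genes and lists were chosen with earlier results of these data known. All 10 genes are named. Up to 3 common regions per gene are given in full, with every region within 1 kb of a TSS, and, in the lists reported, genes with 3 or more common regions, at most 4 per list. Of the other gene lists counted, 3 are not reported here, nor are the genes the rule names in them. The pair in Kalrn intron 1, the weaker Gap43 regions and the Gap43 region 9.64 kb upstream were picked after their values were seen. Alternatives changed the q filter, list length, region width, assignment and libraries.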

Additional observations from a re-analysis of the deposited data

How the results depend on the processing

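Of 13 alternatives, 12 kept the numbers of regions and common regions at the 10 genes within 1.5 times the values given and the common share inside its interval. The exception was lists of equal length (the 7497 peaks of highest fold in each). With these, 33 regions and 12 common regions were left, the common share was 36.4% (21.5% of all regions), and 4 genes had a common region: Gap43 (5), Srgap2 (4), Kalrn (2) and Stmn2 (1). Leaving out 1 library at a time gave 77 to 93 regions, 24 to 30 common regions and 6 to 7 genes with one. In these settings, counted among the 12, common meant a peak of every library kept. A region of all 6 libraries stays common then, so the common counts could hardly fall and their steadiness tells little. The highest count came without NfiX CD1. The count of settings above looks at the 10 genes only and not at their distance from all regions. That distance narrowed without NfiX CD1, where the common share was 32.3% at the 10 genes and 25.3% over all regions. With all 6 libraries these shares were 25.8% and 13.2%. Single genes moved by more than 1.5 times in some settings: with −log10 q of 5 or more, Gap43 had 3 and Srgap1 had 1. Srgap1 had 1 with 200 bp windows and 1 with the nearest coding TSS only. Gene bodies alone gave 82 regions and 22 common ones. Read depth is unknown, its part in the list lengths was not tested, and a region without a peak in the 7497 of NfiX CD1 is not shown to be unbound.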
